A study of Caenorhabditis elegans with 4 samples.

Results

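LET-418 peaks near the ends of the 6 Caenorhabditis elegans chromosomes were taken as those of the series-wide list whose midpoint lay within 200 kb of the first or last base, by the WS220 chromosome lengths. They number 367 of 13690 peaks (2.68%), in 12 windows that make up 2.39% of the genome. LET-418 was mapped by chromatin immunoprecipitation and sequencing (ChIP-seq), which recovers and sequences the DNA crosslinked to a protein, in whole wild-type worms of strain N2 at larval stage L3, grown at 20 °C as a mixed population of males and hermaphrodites. Both ChIP replicates used an affinity-purified rabbit polyclonal antibody, SDQ2342, and 2 input DNA samples came from the same kind of worms. A peak list of each ChIP replicate and a series-wide one were used; no peak list of the input samples was used here. All tissues of the worm are mixed in each list. Separate cultures are not stated for the replicates, so their spread may be technical.

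LET-418 is the C. elegans relative of Mi-2/CHD4, an ATPase that moves nucleosomes. It acts within NuRD and MEC, a pair of protein complexes, and helps to keep germline genes silent in somatic cells. Each worm chromosome ends in telomere repeats, which protect the end from being treated as a break. Inward of them lie the chromosome arms, which are richer in repeated sequence and in histone H3 lysine 9 methylation than the centres and are held at the nuclear periphery in many cells. Worm chromosomes are holocentric, so neither end lies near a single centromere.

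The lists differ in length, which sets how many peaks any window can hold. Replicate 1 had 1887 peaks, 54 of them in the terminal windows, and replicate 2 had 19594 peaks, 584 of them there. The sequencing depth behind each list is unknown, and the score was compared only within 1 list. Series-wide and replicate lists share peaks and are not independent.

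Replicate 2 had a peak at the tip of all 12 chromosome ends, and neither of the other lists had any. At the 6 left ends this peak began at base 1. At the right ends of II, III, IV, V and X it ended at the last base of the chromosome, and at the right end of I it ended 36 bp short of it. The peaks were 192 to 455 bp wide (median 265.5 bp), close to the replicate 2 median of 249 bp. Replicate 2 peaks covered 6.61% of the genome.

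The replicate 2 score of these tip peaks varied from end to end. The highest belonged to the left end of I, where the peak ran from base 1 to 455 with a score of 42.46, above 91.7% of all replicate 2 peaks. On the left, the others scored 22.79 on X (1 to 334), 21.49 on II (1 to 233), 17.11 on V (1 to 333), 14.09 on IV (1 to 228) and 7.8 on III (1 to 216). On the right, V scored 21.63 (20923877 to 20924149), III 13.87 (13783436 to 13783700), IV 12.79 (17493508 to 17493793), II 10.88 (15279080 to 15279345) and X 7.2 (17718639 to 17718866). The lowest was the right end of I, with 2.05 (15072196 to 15072387), above only 1.18% of replicate 2 peaks. Left tips had a median of 19.3 and right tips one of 11.8, and the groups overlapped.

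None of the 12 tip peaks overlapped a series-wide peak or a replicate 1 peak. In the whole of replicate 2, 63.3% of peaks had a series-wide counterpart, and 90.9% of those at or above the median score did. Only 8.65% of all replicate 2 peaks overlapped a replicate 1 peak, so 0 of 12 in replicate 1 is near that background. Of the tip peaks, 9 had a score above the replicate 2 median of 9.32. Only 1 other replicate 2 peak had its midpoint within 1 kb of an end, at II 15278563 to 15278724 with a score of 5.86, and it did have a series-wide counterpart.

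Away from the tips, the outermost peaks of the series-wide list lay 630 to 44584 bp from the last base, with a median of 8540 bp. The nearest was II 15278570 to 15278715 at the right end of II, a 146-bp peak with a score of 2.64. Next came II 1400 to 1557 (score 4.57), V 3446 to 3612 (4.37), I 3754 to 4008 (9.98), X 5310 to 6194 (16.57) and X 17711764 to 17711931 (6.41), which completes the 6 ends with a peak within 10 kb. Of these, the peak at the left end of X had a replicate 1 counterpart.

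The remaining 6 ends had a longer empty stretch. Their first series-wide peak was III 10146 to 10317 (score 7.57), III 13771151 to 13771367 (20.49), IV 17345 to 17538 (11.9), I 15042141 to 15042460 (5.36), IV 17461368 to 17461629 (15.49) and V 20879348 to 20879565 (5.75). Of these the peak at the right end of IV was in replicate 1, which makes 2 of the 12 outermost peaks, against a background of 12.1% of all series-wide peaks. The peak on the left end of III overlapped neither replicate list; the other 11 outermost series-wide peaks overlapped replicate 2.

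Replicate 1 began within the outermost series-wide peak at the left end of X and the right end of IV. At the other ends it began further inside. Its outermost peak lay 5377 bp from the tip at the left end of X (5378 to 5618, score 4.8), 15065 bp at the left end of III (15066 to 15234, 3.27), 20677 bp at the right end of II (15258398 to 15258668, 6.83), 22298 bp at the left end of I (22299 to 22465, 6.73) and 32237 bp at the right end of IV (17461410 to 17461556, 3.12). At the right end of III, the right end of V, the left end of IV and the right end of I, the outer 75104, 78387, 79639 and 119477 bp held no replicate 1 peak. The outer 156045 bp of the left end of II held none. At the left end of V and the right end of X the first replicate 1 peak lay beyond the 200-kb window, at V 203651 to 203851 and X 17392191 to 17392336.

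**Figure D1:**
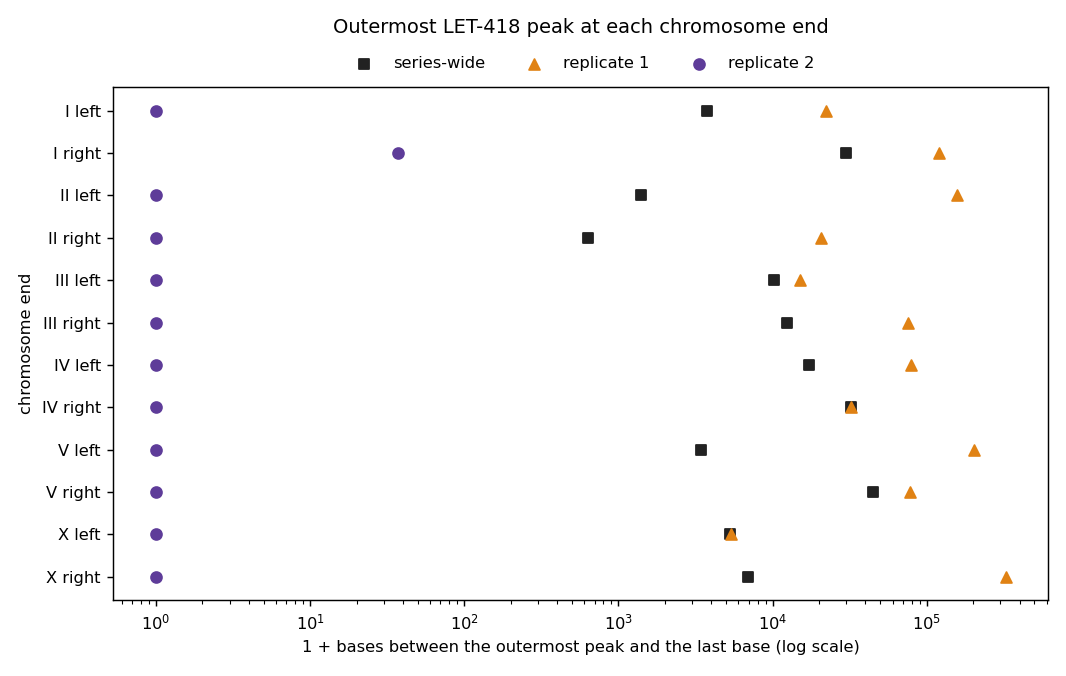
Bases between the outermost LET-418 peak and the last base of the chromosome, plus 1, on a log axis, for the 12 ends (rows) in the series-wide list (squares), replicate 1 (triangles) and replicate 2 (circles). Replicate 2 touches the last base at 11 ends and stops 36 bp short at the right end of I, while the series-wide peaks start at 630 bp and the replicate 1 peaks at 5377 bp.

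Peak density differed several-fold among the 12 ends. In the series-wide list, the right end of II held more peaks than any other end, 54 in 200 kb or 270.0 per Mb (exact Poisson interval 203 to 352). The right end of III and the left end of X followed with 45 each, or 225 per Mb (164 to 301), and the left end of III with 42, or 210.0 per Mb (151 to 284). The left ends of I and V held 33 and 30 peaks. There were 26 at the right end of I, and the left end of IV and the right end of V 25 each. At the low end were the right end of X with 18, the left end of II with 17 and the right end of IV with 7, or 35 per Mb (14.1 to 72.1).

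Neighbours in this order could not be told apart. None of the 11 neighbouring pairs differed by the exact binomial test at an adjusted p of 0.05 or less, and none at an unadjusted p of 0.05 or less. The widest step was the last, from 17 peaks at the left end of II to 7 at the right end of IV (exact binomial p = 0.064, adjusted 0.70). The intervals of the upper 4 ends and of the right end of IV do not overlap. Over all 496 whole 200-kb windows of the genome the median was 24 peaks. Of these windows, 34 held more than the right end of II and 470 held more than the right end of IV. Counts over the 12 ends had a variance of 6.19 times their mean, against 11.6 times over all windows.

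The replicates ordered the ends in part alike. In replicate 2 the right end of III led with 90 peaks, before the right end of II with 73, the left end of III with 66 and the left end of X with 57, and the right end of IV was again lowest with 14. In replicate 1 the left end of X had 19 peaks, the left end of III 14 and the right end of II 6, while the other ends had 0 to 3. Only 2 lay at the right end of III, first in replicate 2. Across the 12 ends, which share their library, Spearman's rho was 0.94 between the series-wide list and replicate 2, 0.62 between the series-wide list and replicate 1, and 0.58 between the replicates.

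**Figure D2:**
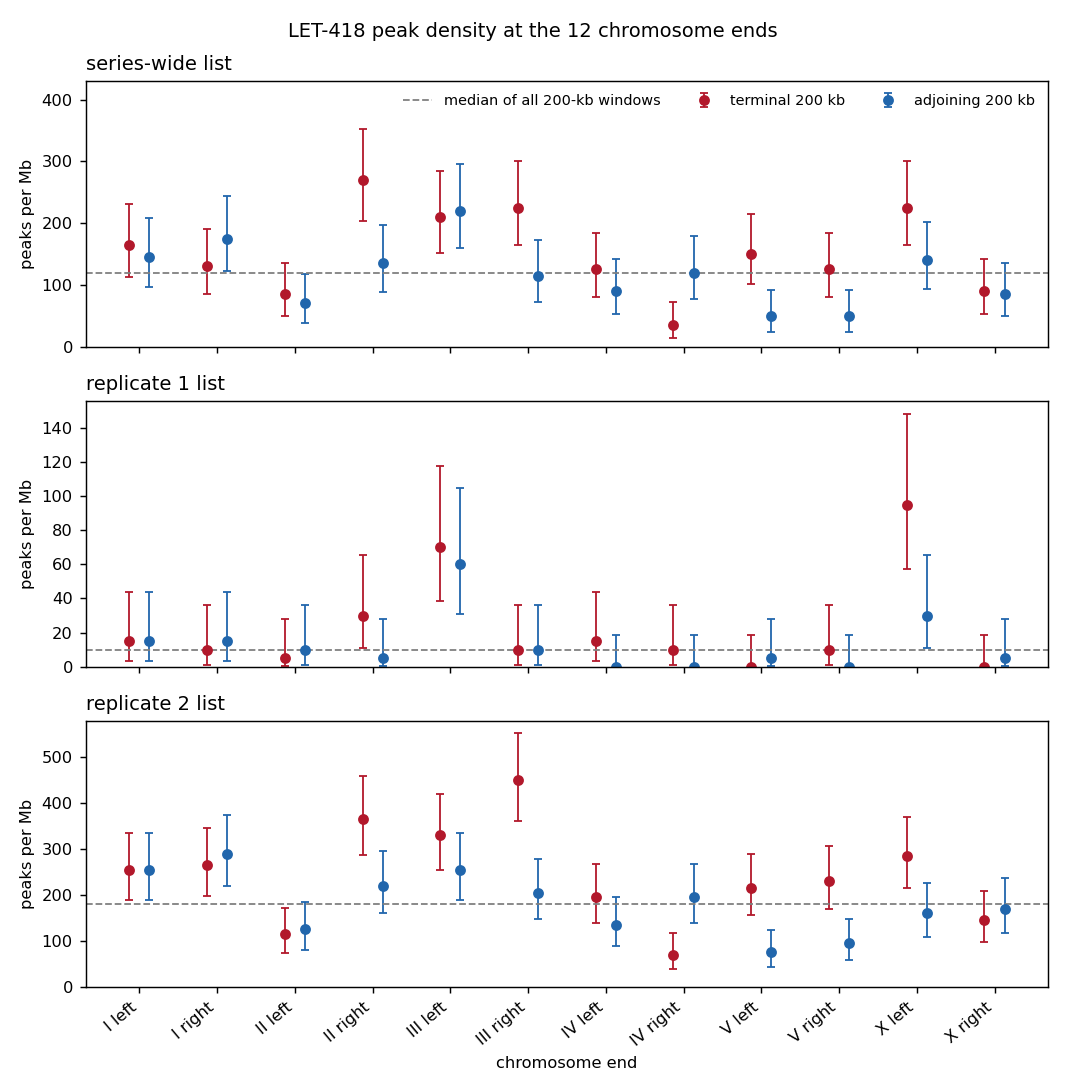
Peaks per Mb in the terminal 200 kb (red) and the adjoining 200 kb (blue) of each chromosome end, with 95% exact Poisson intervals, in 3 lists with separate linear axes; the dashed line is the median of all 200-kb windows. In the series-wide list the right end of II is highest at 270.0 per Mb and the right end of IV lowest at 35 per Mb.

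Peaks within an end lay in groups with empty stretches between them. At the right end of II, 20 peaks fell in the 20 kb from 69.98 kb inward, and 43 of its 54 peaks lay in the outer 100 kb. The left end of III had 16 in the 20 kb from 70.5 kb and 37 of 42 in its outer 100 kb, followed by a gap from 132 to 184 kb. The right end of III had 15 in the 20 kb from 59.4 kb, and the left end of X 13 in the 20 kb from 149.99 kb. Other ends were empty near the tip: the right end of V had no series-wide midpoint in its first 44.7 kb and the right end of I none in its first 30.1 kb. On X the right end had a single peak at 7.02 kb and then none before 78.1 kb, the longest gap of the 12 ends. The median distance between neighbouring midpoints was 1833 bp (quartiles 767.5 and 5842), and 33.0% of these distances were under 1 kb; in the adjoining windows the median was 2586 bp and the share 23.2%.

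**Figure D3:**
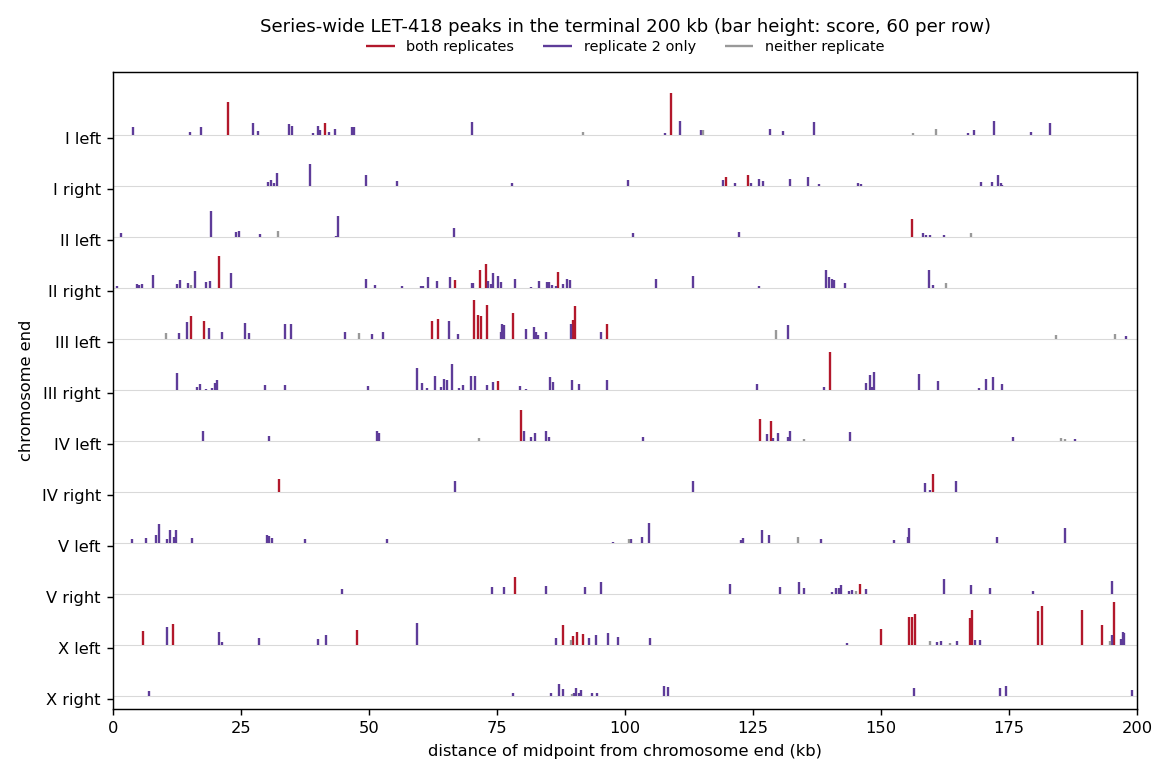
The 367 series-wide peaks of the 12 ends by distance of the midpoint from the end, in kb, with 1 row an end; the bar height is the score, and the colour shows the replicate lists that overlap the peak. Bars called in both replicates gather at the left ends of III and X, and the right end of IV has 7 bars in all.

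Pooled over the ends, the terminal 200 kb were denser than the adjoining 200 kb by counts of peaks, but the ends did not move as one, and with 50-kb windows the ratio fell below 1, to 0.80 (95 against 119 peaks, adjusted exact p = 0.17). The series-wide list had 367 peaks, or 153 per Mb, in the terminal windows and 279, or 116 per Mb, in the adjoining ones, a ratio of 1.32 (95% interval 1.12 to 1.54, exact binomial p adjusted over the 3 lists = 0.00091). The ratio was 1.34 in replicate 2 (584 against 436, interval 1.18 to 1.52, adjusted exact p = 1.21e-05) and 1.74 in replicate 1 (54 against 31, 1.10 to 2.80, adjusted exact p = 0.017). Peaks lie in clusters, so these p-values and intervals cover counting error only, not the spread between ends. Further inside, to 2000 kb, the series-wide ratio of a 200-kb bin to the next one inward ranged from 0.67 to 1.48. Of the 12 ends, 9 held more series-wide peaks than their adjoining window and 3 held fewer (two-sided exact sign test, p = 0.15, adjusted over 9 sign tests 1.00). In replicate 2 it was 7 against 4 with 1 tie, and in replicate 1 it was 6 against 4 with 2 ties, with adjusted exact sign test p of 1.00 in both. The replicate 1 ratio rested on few ends: without the left end of X it was 1.40 (35 against 25 peaks, 0.81 to 2.44, exact p = 0.25) and without the right end of II 1.60 (48 against 30, 0.99 to 2.62, exact p = 0.054).

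Taken singly, 5 of the 12 ends differed from their adjoining window in the series-wide list at an adjusted p of 0.05 or less, which is 41.7%. The same test called 34.5% of the 472 pairs of neighbouring 200-kb windows further inside the chromosomes at an unadjusted p of 0.05 or less, and 21.2% after adjustment over all pairs. Neighbouring windows in the interior thus also differed often, and whether the share at the ends exceeds theirs was not tested. The 5 ends became 3 with 100-kb and 3 with 50-kb windows, and 0 (4 at an unadjusted p of 0.05 or less) for peaks with scores at or above the list median. Higher in the terminal window were the left end of V (30 against 10 peaks, ratio 3.00, interval 1.43 to 6.88, adjusted exact p = 0.014), the right end of II (54 against 27, ratio 2.00, 1.24 to 3.30, adjusted exact p = 0.014), the right end of III (45 against 23, ratio 1.96, 1.16 to 3.39, adjusted exact p = 0.031) and the right end of V (25 against 10, ratio 2.50, 1.16 to 5.83, adjusted exact p = 0.040). The right end of IV was lower in the terminal window (7 against 24, ratio 0.29, 0.11 to 0.70, adjusted exact p = 0.014). At each end of V the adjoining window held 10 peaks, against a median of 24 over all windows, while the terminal windows held 30 and 25.

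Replicate 2 called the same 5 ends and the left end of X (57 against 32, adjusted exact binomial p = 0.021), with a background of 35.4% unadjusted and 23.9% adjusted. The largest ratio was again at the left end of V, 43 against 15 peaks, and the right end of III had 90 against 41. In replicate 1 no end passed adjustment over the 12 ends by the exact binomial test, and 1 end, the left end of X with 19 against 6 peaks, had an unadjusted p of 0.05 or less, against backgrounds of 5.72% and 12.1% of inner pairs.

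By distance, the series-wide list and replicate 2 had their highest values in different 50-kb bins, but the intervals of those bins overlapped in each list. Series-wide density was 158 per Mb (128 to 194) in the outer 50 kb, 198 (164 to 237) from 50 to 100 kb, and 132 and 123 in the next bins. Replicate 2 had 287 per Mb (245 to 333) in the outer 50 kb, a bin that holds the 12 tip peaks, none with a series-wide counterpart. It was lower in each of the next 4 bins, from 265 (225 to 310) and 222 per Mb to 187 per Mb just beyond 200 kb. Of the replicate 2 peaks, 52.3% (Wilson 44.9 to 59.7) in the outer 50 kb and 73.6% (66.2 to 79.8) from 50 to 100 kb had a series-wide counterpart. Over all replicate 2 peaks the background was 63.3%. In the outer 10 kb, 14 of 33 had a series-wide counterpart, or 42.4%, with the 12 tip peaks counted among the 33. By replicate 2 score, the 19 without one had a median of 10.85 and the 14 with one 5.68. Of those 19, 12 were the tip peaks described above, with a median of 13.98. From 10 to 200 kb the peaks without a counterpart had a median of 5.32 and those with one 15.7.

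**Figure D4:**
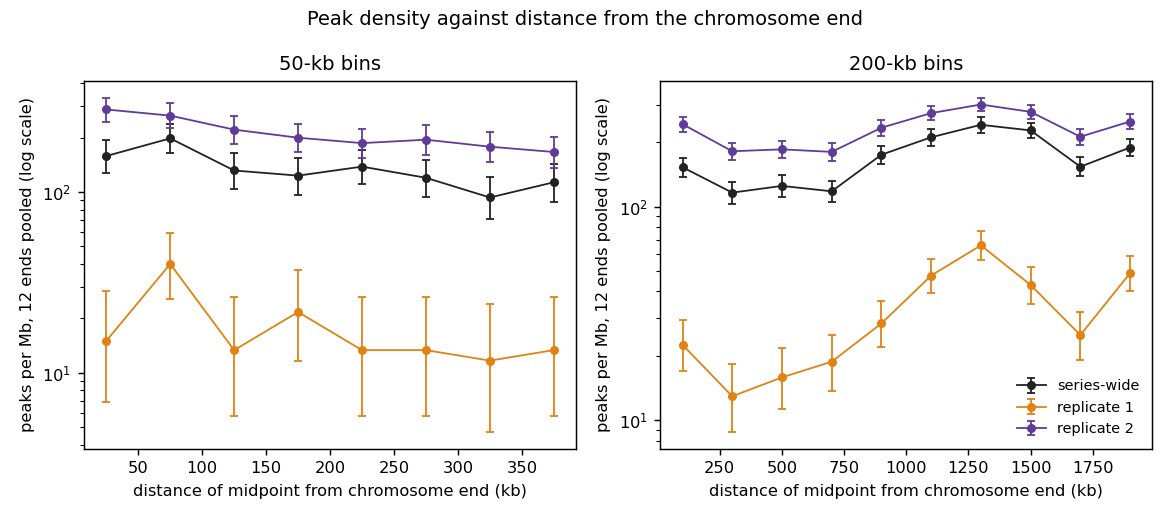
Peaks per Mb on a log axis against the distance of the midpoint from the chromosome end, 12 ends pooled, in 50-kb bins to 400 kb (left panel) and 200-kb bins to 2000 kb (right panel), with 95% exact Poisson intervals. In 200-kb bins the terminal density of 153 per Mb in the series-wide list exceeds the next 3 bins of 116, 125 and 118 per Mb, and the bins from 800 to 1600 kb reach 175 to 242 per Mb.

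The ends of a chromosome differed in count on II, IV and X, which is 3 of 6 chromosomes. Among the 242 pairs of inner 200-kb windows at equal distance from the left and right end of a chromosome, 40.1% were called at an unadjusted p of 0.05 or less and 34.3% after adjustment, and 1 chromosome was called with 100-kb or with 50-kb windows. On II the right end had 54 series-wide peaks and the left end 17, a left to right ratio of 0.31 (0.17 to 0.55, exact binomial p adjusted over 6 chromosomes = 7.5e-05). On IV it was 25 on the left and 7 on the right (ratio 3.57, 1.50 to 9.78, adjusted exact p = 0.0042), and on X 45 and 18 (ratio 2.50, 1.42 to 4.59, adjusted exact p = 0.0027). These 3 chromosomes passed in replicate 2 as well, with 23 against 73, 39 against 14 and 57 against 29 peaks, against a background of 38.8% unadjusted and 35.5% adjusted. On I, III and V the ends were not shown to differ in the series-wide list, with left to right ratios of 1.27 (0.74 to 2.21), 0.93 (0.60 to 1.45) and 1.20 (0.68 to 2.13). In replicate 1, X had 19 peaks on the left and 0 on the right (adjusted exact p = 2.3e-05) and III had 14 and 2 (adjusted exact p = 0.013), against a background of 19.4% unadjusted and 15.3% adjusted.

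Neither width nor score was shown to differ between the ends and their adjoining windows. The median width was 255 bp (quartiles 197 and 379.5) against 257 bp in the adjoining windows and 246 bp in the whole series-wide list. The median score was 8.29 (quartiles 4.89 and 14.6), against 7.85 and 7.57. End by end, the median width was lower than in the adjoining window at 7 ends and higher at 5, and the median score was lower at 4 and higher at 8 (two-sided exact sign tests, adjusted p of 1.00 for both). Replicate 2 split 6 and 6 for width and 5 and 7 for score. Replicate 1 had peaks in both windows at 7 ends only, with 4 lower and 3 higher for each measure. Adjusted exact sign test p-values were 1.00 throughout.

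The ends varied among themselves in both measures. The widest median was at the right end of III, 352 bp, and the narrowest at the left end of IV, 211 bp. The highest median score was at the left end of III, 15.61, followed by 13.2 at the left end of X and 12.84 over the 7 peaks at the right end of IV, and the lowest was 4.89 at the left end of II. In the adjoining windows 10 of 279 peaks (3.58%) were over 1 kb, and in the whole list 2.87%. At the ends, peaks over 1 kb numbered 14 of 367 (3.81%). They lay at the right end of II, the left end of III and the left end of X with 3 each, at the left end of I and the right end of III with 2 each, and at the right end of I with 1.

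The best single peak of an end ranged from a series-wide score of 13.73 at the right end of X to 50.87 at the left end of X. It was 49.67 and 26.67 at the left and right ends of I, 30.32 and 38.2 on II, 45.85 and 44.69 on III, 36.31 and 21.45 on IV, and 23.55 and 20.3 on V. Peaks covered 5.27% of the bases in the terminal windows, 4.29% in the adjoining ones and 4.59% of the genome. By end, the covered share was highest at the right end of II with 10.2% and lowest at the right end of IV with 0.88%.

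**Figure D5:**
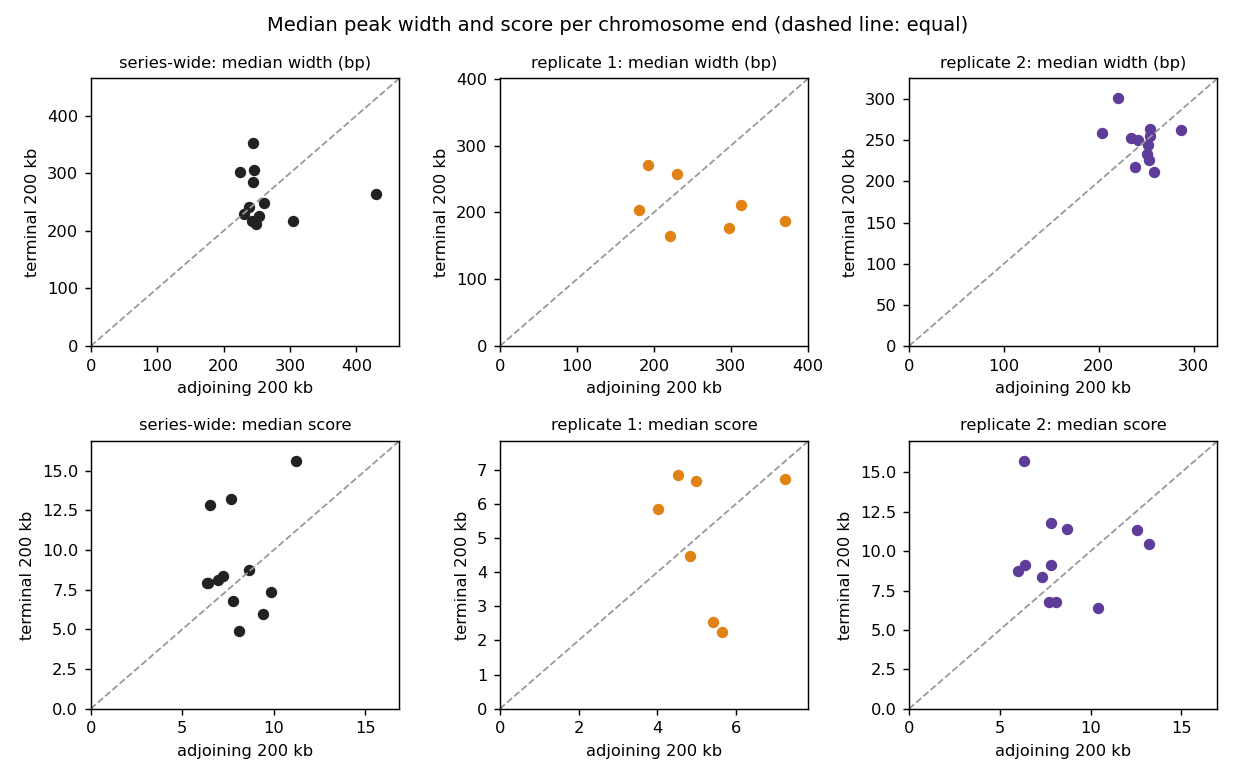
Median width in bp (upper row) and median score (lower row) of the peaks in the terminal 200 kb against those in the adjoining 200 kb, with 1 point a chromosome end, in 3 lists; only the 7 ends with peaks in both windows appear for replicate 1. Points lie on both sides of the dashed line of equality, 8 above and 4 below for the series-wide score.

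Replicate support at the ends was near that of the whole list. Of the 367 peaks, 342 overlapped replicate 2, or 93.2% (Wilson 90.1 to 95.3), against a background of 93.3% of all series-wide peaks and 95.0% in the adjoining windows. Replicate 1 was overlapped by 50, or 13.6% (10.5 to 17.5), against a background of 12.1% and 10.8% in the adjoining windows. Neither share passed the test against the adjoining windows (two-sided Fisher's exact test, adjusted p = 0.41 for both) or from all other series-wide peaks (adjusted Fisher's exact p = 0.75 for replicate 1 and 0.92 for replicate 2). All 50 peaks in replicate 1 were in replicate 2 too, 292 were in replicate 2 only, and 25, or 6.81% against a background of 6.57%, were in neither. Those in both had a median series-wide score of 24.1 and a median width of 465.5 bp, those in replicate 2 only 7.93 and 245 bp, and those in neither 4.86 and 168 bp. The whole list was alike, with 24.5 and 435.5 bp in both, 7.17 and 238 bp in replicate 2 only, and 4.65 and 174 bp in neither. All 54 replicate 1 peaks at the ends had a series-wide counterpart, against a background of 99.8%. Of the 584 replicate 2 peaks, 342 did, or 58.6% (54.5 to 62.5), against a background of 63.3% and 58.5% in the adjoining windows.

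The left ends of X and III held most of the sites called in both replicates. Together they had 30 of the 50 members that overlapped replicate 1 and 25 of the 41 members in the highest score decile of the series-wide list (11.2% of the 367 members, against 10.0% of the list by construction). At the left end of X, 18 of 45 peaks overlapped replicate 1, or 40.0% (27.02 to 54.5), and on the rest of X 56 of 1851, or 3.03% (2.34 to 3.91). Within that rest, the 200 kb adjoining the left end held 28 peaks, of which 6 overlapped replicate 1. At the left end of III, 12 of 42 overlapped replicate 1, or 28.6% (17.2 to 43.6), and in its adjoining 200 kb 12 of 44 did. At the other 10 ends it was 20 of 280, or 7.14% (4.67 to 10.8). All 12 ends together had 13.6%, against a background of 12.1%. The left ends of X and III were chosen for their values, which lowers the share left at the other ends, so no test is given. Among the other ends, replicate 1 overlapped 5 of 54 peaks at the right end of II, 3 of 33 at the left end of I, 3 of 25 at the left end of IV, and 0 to 2 at each of the rest. It overlapped 2 of 45 at the right end of III, an end where all 45 overlapped replicate 2.

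Replicate 1 had fewer peaks on X than on any autosome, and many of them lay within 200 kb of its left end. The left 200 kb held 19 of the 86 replicate 1 peaks on X, or 22.1% (14.6 to 31.9), in 1.13% of its length; they held 2.37% of the series-wide peaks on X and 1.84% of its replicate 2 peaks. In series-wide score the median was 13.2 at this end and 6.39 on the rest of X. Most of the replicate 1 peaks there lay in the inner part of the window: 11 of the 19 were between 150 and 200 kb, where the series-wide list had 22 peaks and replicate 2 had 23. A second group of 4 ran from X 87379 to 91883. At the left end of III, 12 of the 14 replicate 1 peaks lay between 50 and 100 kb, where the series-wide list had 24 and replicate 2 had 36. At the right end of II the 6 replicate 1 peaks comprised a run of 3 from II 15206395 to 15207730, with scores of 7.41, 3.75 and 3.75, and single peaks scoring 6.83, 5.2 and 2.27.

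The highest-scoring members came from 4 of the 12 ends and were called in both replicates. The first was X 195356 to 195828 (473 bp, 195.6 kb from the left end), with a series-wide score of 50.87, rank 30 in the whole list, and scores of 18.77 in replicate 1 and 87.69 in replicate 2. Second was I 108091 to 109856 (1766 bp), with 49.67, 15.48 and 94.7. After it came X 181082 to 181685 (604 bp), with 46.49, 13.52 and 100.94. Next came III 69909 to 71080 (1172 bp), with 45.85 and 77.44 in the series-wide and replicate 2 lists and a pair of replicate 1 peaks, the higher at 12.76. The fifth, III 13643469 to 13643820 (352 bp, right end), had 44.69 in the series-wide list, only 9.56 in replicate 1, and 161.0 in replicate 2, the highest replicate 2 score of any end.

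The widest members were neighbours of these sites. On the left end of III, 62462 to 64366 (1905 bp, score 23.53) and 64460 to 66619 (2160 bp, score 21.51) lay side by side; the first overlapped a replicate 1 peak with a score of 5.7 and the second none. X 188278 to 190123 (1846 bp, score 40.72) overlapped 2 replicate 1 peaks and 1 replicate 2 peak with a score of 110.07.

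The 12 peaks just inside the 200-kb limit, 1 for each end, lay 163 to 199.0 kb from the tip, with scores of 2.03 to 17.88 (median 7.455) and widths of 174 to 468 bp (median 212.5), and 0 of them overlapped replicate 1. The 12 just outside lay at 202 to 233 kb, with scores of 2.18 to 24.64 (median 11.56) and widths of 156 to 595 bp (median 257), and 2 of them overlapped replicate 1. Over all series-wide peaks, 12.1% overlapped replicate 1. The score and width ranges of both sides overlapped, and no test was made.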

How the data were processed

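The authors called peaks with MACS on WormBase WS220 (ce10), per the file headers and the source column of each list; the submitters' processing notes name BWA and ce10. The sources used here do not give the versions, the threshold for a peak, how the input DNA entered, or how the series-wide list was made. The authors deposited a start, an end and a score for each peak, with no named scale for the score and no read counts, so the depth is unknown.

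Each peak was placed by its midpoint, counted from base 1 at the left (low-coordinate) end and from the last base at the right end. No peak was filtered. Counts in windows of equal length were compared by two-sided exact binomial tests, signs over the 12 ends by two-sided exact sign tests, and shares by two-sided Fisher's exact tests. Adjustment was by Benjamini-Hochberg over 12 ends, 6 chromosomes, 11 neighbouring ends, 3 lists, 2 replicates or 9 sign tests. Overlap meant at least 1 bp. Intervals are 95% exact Poisson for densities, Clopper-Pearson for ratios and Wilson for shares, and cover counting error over peaks only. Peaks lie in clusters, so p-values from counts of peaks are too small. The windows and tests were chosen with earlier results of these data known. No gene annotation or sequence was used here. The regions named are the outermost peak at each end, the 5 highest-scoring and 3 widest members, and the peaks on either side of the 200-kb limit. The left ends of X and III were singled out after their values were seen. The procedures were tested on simulated lists of 13690 peaks, 100 for each planted ratio of terminal to adjoining density. The interval held a planted ratio of 1 in 96 simulations and a planted ratio of 2 in 90. For the ratio of 2 a copy of each terminal peak was added, so those lists were longer than 13690. The copies were not independent, so the 90 does not measure how the interval performs on independent peaks. These simulations do not show how the tests and intervals perform on peaks that lie in clusters. Analyses ran in Python 3.11.15 with SciPy 1.17.1, NumPy 2.4.6, Matplotlib 3.10.9 and pandas 2.3.3.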

Additional observations from a re-analysis of the deposited data

How the results depend on the processing

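No paired analysis was possible because no peak list of the input samples was used, so a ChIP replicate could not be set against the input of its number. The comparison with the window from 400 to 600 kb and the omission of single ends were added after the data were seen. The terminal to adjoining ratio of 1.32 was 1.24 to 1.41 with any 1 end omitted, 1.22 against the window from 400 to 600 kb, and 1.34 to 1.74 with either replicate list alone. In the series-wide list the ratio fell below 1 with 50-kb windows, at 0.80 (adjusted exact binomial p = 0.17). By construction these compare the outer 50 kb with the bin from 50 to 100 kb. The inner bin was the denser one in the series-wide list and replicate 1, but not in replicate 2 (172 against 159 peaks). Against all other positions the ratio of 1.12 (exact interval 1.01 to 1.25, adjusted exact p = 0.044) was no longer called with 50-kb windows (1.16, p = 0.22), and was 1.20 to 1.25 with either replicate list alone, with no call in replicate 1. With 50-kb windows 7 ends, not 3, held fewer peaks than their neighbour. Median width was lower at 5 ends, not 7, with 100-kb windows; median score was lower at 4 to 5 ends with either replicate list alone, and 4 was the majority in replicate 1. The replicate 1 share of 13.6% fell below that of the neighbouring window with 50-kb windows (9.47% against 17.6%), and the replicate 2 share of 93.2% rose above it with 100-kb windows (96.3% against 88.9%, adjusted Fisher's exact p = 0.021). The 5 called ends became 3 with 100-kb and 3 with 50-kb windows, 0 for scores at or above the median (4 unadjusted), and 0 to 6 with either replicate list alone. The 3 chromosomes with unequal ends became 1 with 100-kb and 1 with 50-kb windows, and 2 to 3 with either replicate list alone. Neighbouring ends had 0 calls by the exact binomial test, adjusted or not, under all 5 alternatives run. Where a cause is not named it was not tested.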

Other observations

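Within 2000 kb of an end, the density of series-wide peaks pooled over the 12 ends was 116, 125 and 118 per Mb in the 200-kb bins from 200 to 800 kb. It was 175 from 800 to 1000 kb and 242 (exact Poisson interval 222 to 262) from 1200 to 1400 kb, above the terminal value of 153. The rest of the genome, beyond 2000 kb, averaged 126 per Mb (123 to 128). Replicate 2 reached 301 per Mb from 1200 to 1400 kb, against 243 in the terminal bin. Replicate 1 reached 65.8 (55.97 to 76.9), against 22.5. The share of series-wide peaks that overlapped replicate 1 was 23.3% in that bin, 13.6% in the terminal bin and 10.8% in the adjoining one. The ratio of a 200-kb bin to the next one inward ranged from 0.67 to 1.48 over the 8 steps from 200 to 2000 kb, which includes the terminal ratio of 1.32.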
